A study of Mus musculus with 56 samples.

Results

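The transcripts of 10 antioxidant genes were followed along the male reproductive tract of the mouse: the glutathione peroxidases Gpx1, Gpx3, Gpx4, Gpx5, Gpx6, Gpx7 and Gpx8, the superoxide dismutases Sod1 and Sod3, and catalase (Cat). They were listed by name, with earlier results of these data known, and are 10 of the 53379 genes counted. RNA came from the testis, the efferent ductules that leave it, 4 parts of the epididymis (initial segment, caput, corpus and cauda) and the vas deferens of C57BL/6 males that were 3 or 21 months old, with 4 libraries for each region and age and 56 in all. No allele or agent beyond age is named for either group. Fat and connective tissue were trimmed from the organs, the 7 regions were taken from each animal, and the labels do not tie a replicate number to an animal, so that p-values measure the spread between these libraries. Each library held 11125279 to 20561967 counts. The transcript Gm42418 alone took 1.27% to 49.7% of them, the most in the second 3-month caput library. The sum of 5 marker genes chosen for a region was highest in that region for 6 of the 7 regions at both ages; the corpus markers, which share Crisp1 with the cauda list, were higher in the cauda than in the corpus.

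Glutathione peroxidases reduce hydrogen peroxide and lipid hydroperoxides with electrons from glutathione, and they act after superoxide dismutases have turned superoxide into hydrogen peroxide, which catalase also breaks down. In the epididymis, where sperm lie in a duct with little repair capacity of their own, the epithelium secretes peroxidases into the lumen that protect the sperm membrane, and Gpx4 is a structural protein of the sperm midpiece. Some family members carry selenocysteine, encoded by an in-frame UGA, at the catalytic site, and others carry cysteine there.

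The catalytic codon, shown in capitals within 9 codons of the coding strand, divides the family along this line and marks the members whose synthesis needs selenium. The windows were read 5′ to 3′ from GENCODE M21 transcripts (GRCm38), and Gpx2, the remaining selenocysteine member of this group, is shown for comparison.
Gpx1: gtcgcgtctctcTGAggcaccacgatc
Gpx2: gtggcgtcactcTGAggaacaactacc
Gpx3: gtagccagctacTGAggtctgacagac
Gpx4: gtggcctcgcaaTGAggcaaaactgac
Gpx5: gtggctacctatTGCggtctgacaatc
Gpx6: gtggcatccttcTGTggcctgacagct
Gpx7: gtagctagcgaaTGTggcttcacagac
Gpx8: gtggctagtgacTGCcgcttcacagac

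The codon was TGA, read as selenocysteine, in Gpx1, Gpx2, Gpx3 and Gpx4, where it was the only TGA in frame before the terminal stop. It was TGC or TGT, for cysteine, in Gpx5, Gpx6, Gpx7 and Gpx8. It lay at codon 47 of Gpx1 (chr9:108339451-108339453), codon 73 of Gpx3 (chr11:54907256-54907258) and codon 129 of Gpx4 (chr10:80054737-80054739) on the plus strand, and at codon 73 of Gpx5 (chr13:21291336-21291338) on the minus strand and codon 73 of Gpx6 (chr13:21313777-21313779) on the plus strand. Number 129 for Gpx4 is in its longest coding sequence, and the same codon is number 73 or 33 in shorter ones. Gpx5 and Gpx6 share the position, number 73, with each other and with Gpx3. They are next to each other on chromosome 13 on opposite strands, with only the processed pseudogene Gm11270 annotated between them. The corresponding positions were codon 56 of Gpx7 (chr4:108403430-108403432) and codon 79 of Gpx8 (chr13:113045661-113045663), both on the minus strand. Of the 10 genes, Gpx8 overlaps Cdc20b and Sod1 overlaps Scaf4, each on the opposite strand. Gpx2, the peroxidase of the gut epithelium, had no read in any library of the testis or efferent ductules, where 3 reads in a library of the series would be 0.146 to 0.270 CPM, and its highest group mean was 1.16 ± 0.414 CPM (SD, n = 4), in the corpus at 21 months.

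Levels are given as CPM, a gene's count per 1000000 counts of the scaled library, with 1 scaling over all 56 libraries, and since the samples are pieces of organs, more cells of a type and more RNA per cell cannot be told apart. The epididymal secretory peroxidase Gpx5 (ENSMUSG00000004344; chromosome 13, 21286429 to 21292731, minus strand) gave the largest values and the sharpest boundaries. In 3-month-old mice the 4 libraries of the initial segment held 15379, 19609, 16147 and 26508 CPM and those of the caput 16207, 15482, 21274 and 15977 CPM. At 21 months they held 16149, 15862, 14499 and 14268 CPM and 17475, 19862, 22102 and 17317 CPM. The libraries of the initial segment and caput overlapped at 3 months and did not at 21 months, when all 4 of the caput were higher, and the test did not separate the regions at either age (adjusted p = 0.966 at 21 months and higher at 3 months; edgeR quasi-likelihood test, throughout, Benjamini-Hochberg adjustment over all genes). The step down from the caput to the cauda at 3 months was 597-fold (adjusted p = 4.94e-06). In the cauda the levels were 35.2, 19.9, 35.9 and 37.2 CPM at 3 months and 63.6, 64.6, 51.7 and 62.4 CPM at 21 months, and in the testis every library was below 1 CPM.

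Outside these regions Gpx5 was uneven between libraries of the same group. In the efferent ductules, which join the testis to the initial segment, it was 8.01, 0.0527, 0.164 and 0 CPM at 3 months and 0.351, 548, 134 and 0.0910 CPM at 21 months. In the corpus it was 34.9, 0.216, 0.285 and 0.232 CPM and 0.597, 0.226, 0.457 and 2.203 CPM. At 3 months the first library held nearly all of the reads in both regions, and at 21 months libraries 2 and 3 held them in the efferent ductules. Lcn8, a lipocalin made in the initial segment, was 0.0877, 401, 152 and 0.273 CPM in the same 4 efferent ductule libraries at 21 months, 0.212, 0.105, 0 and 0 CPM in those at 3 months and 1.64, 0.216, 0.171 and 0 CPM in the 4 corpus libraries at 3 months. Rnase10, another gene of the initial segment, was 0.351, 188, 85.2 and 0.273 CPM, 0.159, 0.0527, 0.109 and 0.101 CPM and 1.28, 0, 0.0571 and 0 CPM in them. Both were high where Gpx5 was in the efferent ductules at 21 months, and both were below 1 CPM in the first 3-month library of that region. The part of neighbouring tissue in these Gpx5 values was not tested.

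Gpx6 (ENSMUSG00000004341; chromosome 13, 21312125 to 21319624, plus strand), the neighbour of Gpx5 and a peroxidase known from the olfactory epithelium, was found at lower levels and in more regions. At 3 months the initial segment held 19.4, 24.9, 17.5 and 24.8 CPM, the caput 19.95, 17.8, 21.6 and 17.5 CPM and the testis 13.6, 16.2, 20.1 and 11.8 CPM. The initial segment and caput were not separated (adjusted p = 0.899), and the caput stood 1.41-fold above the testis (adjusted p = 0.0492). The cauda held 1.697 to 3.33 CPM, and the efferent ductules, corpus and vas deferens held less than 1 CPM in every library of either age. Like Gpx5, Gpx6 was highest in the initial segment and caput, and in the testis it was above 10 CPM in every 3-month library, where Gpx5 had at most 13 reads in a library (0.744 CPM).

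Gpx3 (ENSMUSG00000018339; chromosome 11, 54902453 to 54910377, plus strand), the secreted peroxidase of plasma, was the main distal form. At 3 months it was 9044, 9073, 7637 and 7975 CPM in the corpus and 9687, 9049, 4469 and 9458 CPM in the cauda. It was 1850.1, 2084, 1679.6 and 1861 CPM in the efferent ductules and 1046, 708, 606 and 811 CPM in the caput. The corpus and cauda were not separated (adjusted p = 0.677), and every later step but that from the caput to the vas deferens was (adjusted p = 0.158, and 0.0441 without the third cauda library, described for Gpx1). The initial segment, with 148, 157, 163 and 157 CPM, lay below both of its neighbours, and the testis, with 4.58, 4.95, 4.801 and 3.59 CPM, was 37.1-fold below the initial segment (adjusted p = 9.67e-19). Between the highest and the lowest of the 14 groups Gpx3 spanned 1883-fold. At 21 months the cauda-to-efferent step was 2.55-fold and the order of the top regions was the same.

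Gpx4 (ENSMUSG00000075706; chromosome 10, 80047166 to 80056439, plus strand), which reduces phospholipid hydroperoxides within membranes, was highest in the testis. The testis held 661, 787, 805 and 667 CPM at 3 months and 680.4, 696, 731 and 693 CPM at 21 months. The next region, the cauda, held 186, 194, 153 and 190.4 CPM and 178, 93.2, 195 and 179 CPM. The testis was 3.97-fold above the cauda at 3 months (adjusted p = 1.3e-17) and 4.16-fold at 21 months (adjusted p = 1.4e-13). At 21 months no step below the testis was separated, while at 3 months the steps from corpus to efferent ductules, from initial segment to caput and from caput to vas deferens were. The step from cauda to corpus at 3 months was not (adjusted p = 0.0502, and 0.0258 without the third cauda library). A pseudogene counted apart, Gpx4-ps2, held 8.03% to 16.8% as many reads as Gpx4 in every library, and how reads were divided between such near-identical copies is not given in the sources used here.

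Gpx1 (ENSMUSG00000063856; chromosome 9, 108338903 to 108340343, plus strand), the cytosolic and mitochondrial form, was highest in the efferent ductules and lowest in the testis. At 3 months the efferent ductules held 147, 157, 139 and 147 CPM and the cauda 87.5, 93.8, 218 and 88.1 CPM, and these were not separated (adjusted p = 0.320). The vas deferens, caput, initial segment and corpus followed, between 32.1 and 75.8 CPM, with no separated step among them when all libraries were kept. The testis, with 13.5, 14.8, 15.7 and 12.3 CPM, was 2.92-fold below the corpus (adjusted p = 1.98e-06). The third cauda library at 3 months, at more than 2 times the others for Gpx1, also had the lowest Gpx3 and the highest Cat and Sod3 of its group, with summed fibroblast markers at 2284, 2286, 9383 and 2541 CPM and summed macrophage markers at 526, 494, 3795 and 494 CPM in the 4 libraries. Without that library the efferent ductules stood 1.71-fold above the cauda for Gpx1 (adjusted p = 9.65e-07), an alternative chosen after the values were seen. In the same fit the caput stood above the initial segment (adjusted p = 0.0189) and the initial segment above the corpus (0.00252), while the cauda and vas deferens were no longer separated (0.0812).

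Gpx7 (ENSMUSG00000028597; chromosome 4, 108400390 to 108406961, minus strand) and Gpx8 (ENSMUSG00000021760; chromosome 13, 113042753 to 113046410, minus strand), the peroxidases of the endoplasmic reticulum, were low and did not share an order. Gpx7 was 7.88 to 10.4 CPM in the efferent ductules and 6.02 to 8.11 CPM in the caput at 3 months, not separated (adjusted p = 0.765), and under 1 CPM in the testis. Gpx8 peaked in the caput with 34.03, 42.96, 52.9 and 55.99 CPM. It was 1.45-fold below that in the initial segment (adjusted p = 0.00686) and had lower means in the corpus, efferent ductules, cauda and vas deferens, down to 2.52, 1.52, 2.18 and 1.65 CPM in the testis. The initial segment was not separated from the corpus (adjusted p = 0.101), nor the efferent ductules from the cauda (0.383).

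The superoxide dismutases and catalase differed in how far they varied. Sod1 (ENSMUSG00000022982; chromosome 16, 90220754 to 90226329, plus strand), the cytosolic copper-zinc enzyme, spanned 3.96-fold between the highest and lowest of the 14 groups, the least of the 10 genes. At 3 months only the steps from corpus to testis (1.502-fold) and from testis to vas deferens (1.45-fold, adjusted p = 0.000169) were separated. Sod3 (ENSMUSG00000072941; chromosome 5, 52363791 to 52371418, plus strand), the extracellular enzyme, was 215, 255, 201 and 237 CPM in the efferent ductules at 3 months and 154, 232, 252 and 167 CPM at 21 months. The testis came next with 30.4, 31.7, 22.1 and 30.6 CPM at 3 months, 8.25-fold lower (adjusted p = 2.23e-15), and the cauda was lowest with 6.34 to 11.6 CPM. Cat (ENSMUSG00000027187; chromosome 2, 103453849 to 103485160, minus strand) was also highest in the efferent ductules, at 117, 130.4, 134 and 137 CPM at 3 months, 2.45-fold above the vas deferens (adjusted p = 1.31e-09), and lowest in the testis, at 12.2 to 15.4 CPM.

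**Figure D1:**
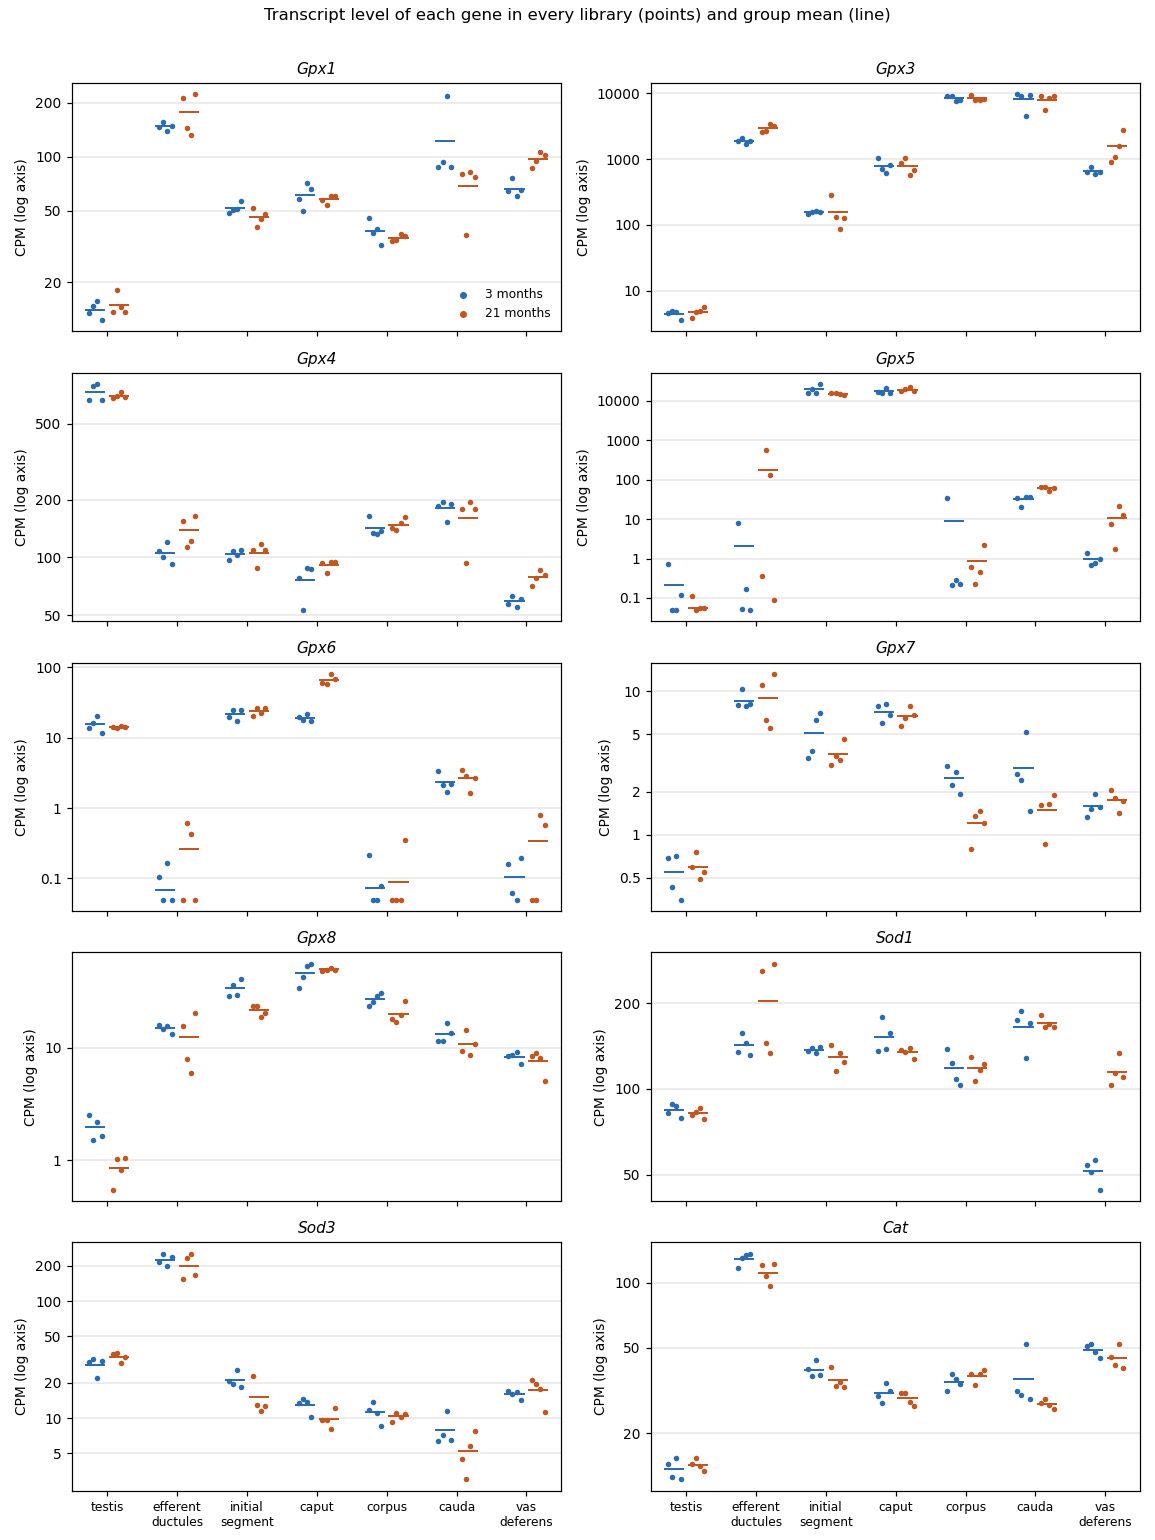
Level of each of the 10 genes in every library, in CPM with 1 scaling over all 56 libraries on log axes, by region from testis to vas deferens; blue points are 3-month and orange points 21-month libraries, 4 each, and the short lines are group means. Values under 0.05 CPM are drawn at 0.05. Gpx5 falls from at least 14268 CPM in the initial segment and caput to at most 64.6 CPM in the testis, corpus, cauda and vas deferens, Gpx3 is highest in corpus and cauda, Gpx4 in testis, and Sod3 and Cat in efferent ductules.

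A gene was called region-specific where its adjusted p was under 0.05 and its mean CPM was 4 or more times the mean over the other 6 regions together. At 3 months 4 of the 10 genes gave 6 such calls, where 47.1% of all genes were called in some region. With another definition, by which a gene had to exceed each of the other 6 regions in turn, there were 2 calls, with the fold of the fit in place of the ratio of means 10, and with DESeq2 3. In the order of the tract, 28.8%, 5.65%, 2.51%, 3.1%, 2.7%, 2.31% and 2.89% of all genes were called for the 7 regions. Gpx4 in the testis stood at 6.56 times the mean of the other 6, and Sod3 in the efferent ductules at 13.9 times. Gpx5 qualified in the initial segment (6.74 times) and the caput (5.32 times), and Gpx3 in the corpus (4.35 times) and the cauda (4.12 times); the highest adjusted p of the 6 was 2.65e-12. At 21 months, when 28.7%, 5.1%, 3.84%, 1.71%, 2.84%, 2.16% and 3.88% of all genes were called for the 7 regions and 47.5% in some region, Gpx4, Sod3 and both Gpx5 calls were made again. Gpx3 was at 3.74 times in the corpus and 3.47 times in the cauda, under the 4-fold limit, while Gpx6 (9.66 times) and Gpx8 (4.06 times) passed it in the caput. None of the 10 was called for the vas deferens at either age. Of the 60 steps between neighbours in the genes' own orders, 27 were separated at 3 months (34 without the third cauda library) and 32 at 21 months. Over all genes and pairs of regions 49.4% and 48.4% of the tests were called, with 24.3% to 75.8% in single pairs at 3 months. The steps join regions next to each other in an order taken from the same values, while these shares cover near and far pairs. The counts of steps therefore cannot be read against the shares. Without the third cauda library the step of Gpx8 from the cauda to the vas deferens was lost (adjusted p = 0.0700), and Cat, not separated between the cauda and corpus with all libraries, was higher in the corpus (0.0419).

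Per kilobase of annotated exon, which allows levels of different genes to be compared, 1 peroxidase made up most of the glutathione peroxidase transcripts in each region, and it changed along the tract. Gpx4 was 94.2% ± 0.504 (SD, n = 4) of the pool of the 7 Gpx genes in the testis at 3 months. Gpx3 was 84.7% ± 1.22 in the efferent ductules. Gpx5 made up 97.9% ± 0.353 in the initial segment, and the caput had 94.5% ± 1.29. From the corpus on Gpx3 led again, with 97.02% ± 0.342 in the corpus, then 94.6% ± 3.22 for the cauda and 79.9% ± 0.534 for the vas deferens, where Gpx1 held 10.3% ± 0.0440 and Gpx4 7.63% ± 0.367. The leading gene carried a selenocysteine codon in 5 regions and a cysteine codon in the initial segment and caput. The leading gene of each region was the same at 21 months, when the share of Gpx3 in the efferent ductules ranged from 74.2% to 88.1% and that of Gpx5 there from 0.00271% to 16.7%. These shares are of transcripts, without a test, and exon lengths summed over annotated isoforms can misstate the length that was read.

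**Figure D2:**
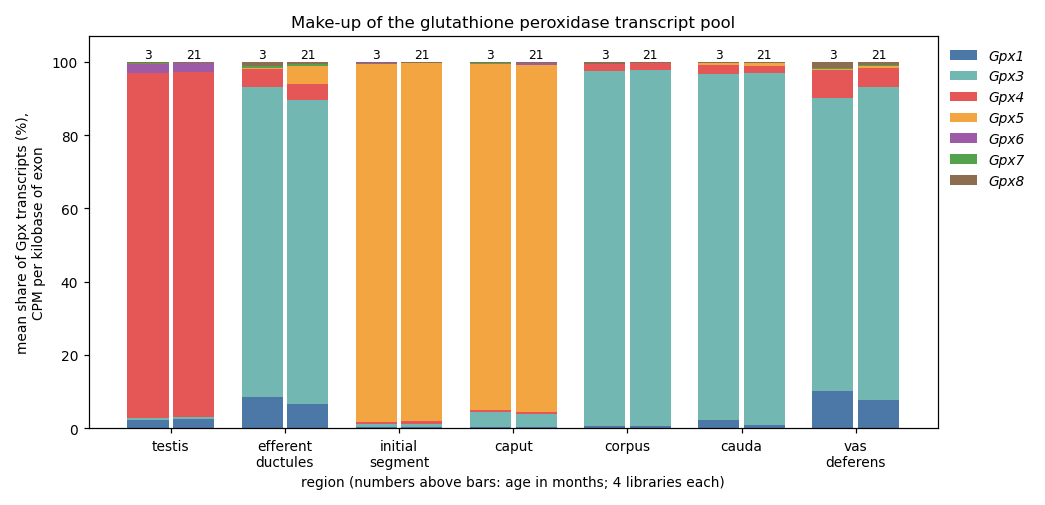
Mean share of each glutathione peroxidase gene in the summed Gpx transcript level (CPM per kilobase of exon, in percent) for each region and age, with 4 libraries behind each bar and the age in months above it. Gpx4 fills most of the testis bars, Gpx5 those of the initial segment and caput, and Gpx3 those of the other 4 regions at both ages.

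Between the ages, 69 of the 70 pairs of gene and region had enough reads to be tested (Gpx6 in the corpus did not), and 9 passed an adjusted p of 0.05: 7 were higher and 2 lower at 21 months. Over all genes and regions 3.3% of tests were called higher and 3% lower. With library size as the only scale the counts were 6 and 4. The values that follow use a scaling within each region's 8 libraries, and the fold changes are of 21 over 3 months.

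In the vas deferens, the muscular duct that carries sperm away from the cauda, 5 of the 10 genes rose and none fell, where 11.1% of all genes tested there were called higher and 8.47% lower. Sod1 was 67.3, 61.8, 68.3 and 55.3 CPM in the 4 libraries at 3 months and 126, 133, 148 and 133 CPM at 21 months, without overlap. It rose 2.14-fold, from 63.2 ± 5.98 to 135 ± 9.17 CPM (SD, n = 4; log2 fold change 1.10, SE 0.08, adjusted p = 5.43e-05). With this rise the vas deferens, lowest of the 7 regions for Sod1 at 3 months, stood above the testis at 21 months (1.56-fold, adjusted p = 0.000368). Scaf4, which overlaps Sod1 on the other strand, was, on the scaling over all libraries, 51.6 to 58.1 CPM at 3 months and 71.6 to 89.3 CPM at 21 months (log2 fold change 0.46, SE 0.09, adjusted p = 0.00420).

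Gpx3 in the vas deferens was 788, 904, 715 and 791 CPM at 3 months and 1120.1, 1264, 1745 and 3294 CPM at 21 months, and the 21-month libraries spread over more than 2-fold. It rose 2.32-fold (log2 fold change 1.21, SE 0.34, adjusted p = 0.0423). Gpx1 rose from 81.7 ± 7.68 to 115 ± 7.496 CPM (0.49, SE 0.08, adjusted p = 0.00224) and Gpx4 from 72.4 ± 4.41 to 93.1 ± 4.59 CPM (0.36, SE 0.07, adjusted p = 0.00535), both without overlap and both by less than 1.5-fold. Gpx5, near absent from the young duct, was 1.71, 0.834, 0.961 and 1.22 CPM at 3 months and 9.45, 2.02, 23.4 and 14.9 CPM at 21 months (3.38, SE 0.73, adjusted p = 0.0181), with 26, 11, 16 and 20 and 138, 34, 375 and 216 reads behind these values. The second 21-month library had the lowest Gpx5 and the fourth the highest Gpx3. Without the fourth 21-month library the log2 fold change of Gpx3 was 0.78 (adjusted p = 0.00548). Gpx3 missed the threshold when any 1 of the 3-month libraries (adjusted p = 0.0719 to 0.0914) or the third 21-month library (0.0740) was left out, and without a filter on low counts (0.0873). Gpx5 did so without 3-month library 3 or 4 (0.0525 and 0.0528) or the fourth 21-month library (0.0549), and in a fit of all 56 libraries Gpx5 (0.0831) and Gpx1 (0.0516) did not pass. Sod3, Cat, Gpx6, Gpx7 and Gpx8 did not pass, with log2 fold changes from -0.19 (Cat) to 1.53 (Gpx6, under 1 CPM). The median over the 10 genes was 0.42, against 0.02 over all genes tested, and in the efferent ductules these medians were 0.42 and -0.04.

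Markers of other cells moved in the same comparison. All 8 B and plasma cell markers and 9 of 10 T cell markers were higher in the vas deferens at 21 months, with sums of 23.2 to 45.3 CPM at 3 months and 919 to 1961 CPM at 21 months for the first list and 7.69 to 12.8 and 29.4 to 87.9 CPM for the second. Of 8 seminal vesicle markers, 5 could be tested and all 5 were higher, with sums of 3.79 to 6.05 and 27.1 to 2271 CPM; Svs3a, Svs3b and Svs6 had no read at 3 months. Smooth muscle markers were higher for 4 of 8, and fibroblast markers lower for 6 of 8 (2659 to 3322 and 1139.5 to 1751 CPM). The fourth 21-month library, with the most Gpx3, had the lowest seminal vesicle sum and the highest B and plasma cell sum of its group. Motile cilia markers were higher for 3 of 8, macrophage markers for 3 of 10, and endothelium markers lower for 3 of 8. Of the 5 genes that mark the initial segment, where Gpx5 is high, 2 were higher, with a median log2 fold change of 1.58 and sums of 24.1 to 51.7 CPM at 3 months and 73.03 to 142 CPM at 21 months, and 2 of the 5 that mark the corpus were higher, with a median of 0.80. Of the 5 that mark the efferent ductules, 2 were higher and 1 lower (median 0.97). Skeletal muscle markers were higher for 2 of 8 and lower for none (median 1.28). Lcn8, from the initial segment list, on the scaling over all libraries, was 0.159, 0.250, 0.346 and 0.195 CPM at 3 months and 0.279, 0.303, 1.13 and 0.285 CPM at 21 months. It held a small part of that list's sum, and the other genes of the list are not given by library here. The part of these cells and regions in the rises was not tested.

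In the caput Gpx6 gave the largest rise among the called pairs with every library above 1 CPM. It was 18.5, 20.2, 20.99 and 16.7 CPM at 3 months and 56.9, 56.2, 75.2 and 64.8 CPM at 21 months, so that the ages were far apart and each was tight. The mean went from 19.1 ± 1.899 to 63.3 ± 8.84 CPM (SD, n = 4; 3.32-fold, log2 fold change 1.73, SE 0.12, adjusted p = 3.14e-06), where 3.27% of genes were called higher. Its neighbour Gpx5 did not pass in the caput (log2 fold change 0.09, 95% interval -0.16 to 0.35). In the initial segment Gpx6 was 21.3 ± 3.53 and 26.00 ± 3.59 CPM (log2 fold change 0.28, SE 0.12, adjusted p = 0.211), and in the testis 14.9 ± 3.45 and 13.6 ± 0.421 CPM (adjusted p = 0.760). Beside the rise, the summed initial segment markers in the caput libraries were 3201 to 5737 CPM at 3 months and 3769.8 to 4707 CPM at 21 months, and the caput markers 5681 to 8351 and 5794 to 7044 CPM, both overlapping. Smooth muscle markers were lower for 6 of 8, fibroblast markers for 4 of 8, T cell markers higher for 4 of 10 and macrophage markers for 3 of 10; their part was not tested. The other 8 genes had log2 fold changes from -0.45 (Sod3, adjusted p = 0.128) to 0.21 (Gpx4).

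In the efferent ductules Gpx3 was 2101, 2398, 1657 and 2169 CPM at 3 months and 3159, 2939.7, 3882 and 3696 CPM at 21 months, without overlap. It rose from 2081 ± 310.1 to 3419 ± 443 CPM (log2 fold change 0.72, SE 0.15, adjusted p = 0.0190), where 3.85% of genes were called higher. Gpx4 also did not overlap, 123, 116, 119 and 108 against 190, 127, 140.1 and 195 CPM, but did not pass (0.49, adjusted p = 0.0667). The 21-month libraries fell into pairs: Sod1 was 319.9, 162, 154 and 325 CPM, Gpx1 262, 160.3, 151 and 263 CPM and Gpx8 19.1, 8.81, 6.88 and 24.1 CPM, with libraries 1 and 4 above libraries 2 and 3 in all of these. Sod1 (0.60, SE 0.25, adjusted p = 0.161) and Gpx1 (0.35, adjusted p = 0.290) did not pass, nor did Gpx5 (adjusted p = 0.178), whose reads lay in libraries 2 and 3. DESeq2, run on the same 8 libraries, called Gpx4 (adjusted p = 0.0170) and Gpx5 (0.0476) beside Gpx3 and not Sod1 (0.0766) or Gpx1 (0.221). Macrophage markers were higher at 21 months for 6 of 10 (427 to 489.8 and 637 to 962 CPM in sum), T cell markers for 5 of 10, B and plasma cell markers for 4 of 8 and red blood cell markers for 4 of the 7 tested (median log2 fold change 1.61; 19.7 to 29.5 and 43.1 to 136 CPM in sum), and fibroblast and adipocyte markers were lower for 3 of 8 each. Smooth muscle and motile cilia markers were higher for 2 of 8 each. Markers of the corpus and cauda, where Gpx3 is highest, had median log2 fold changes of 1.76 and 1.88, with 0 and 1 of 4 tested genes called, and sums at 21 months of 1.32, 105, 131 and 4.01 CPM and 2.37, 64.9, 115 and 6.37 CPM on the scaling over all libraries, against 9.07 to 20.7 and 9.47 to 22.00 CPM at 3 months. These sums were high in libraries 2 and 3, while Gpx3 at 21 months was above every 3-month library in all 4. The share of counts taken by Gm42418 was 1.27% to 3.29% at 3 months and 4.93% to 22.2% at 21 months, without overlap, and with Gm42418 removed before scaling the log2 fold change of Gpx3 was 0.72 (adjusted p = 0.0189). The part of the other cells and regions in the rise of Gpx3 was not tested. Gpx3 missed the threshold without 3-month library 1, 3 or 4 (adjusted p = 0.0698, 0.0609 and 0.0721), in a fit of all 56 libraries (0.114), and when only library size was used as the scale (0.103, with the log2 fold change at 0.37 where the median of all genes moved to -0.38). With 21-month libraries 1 and 4 of this region left out, the calls of the 10 genes over all regions went from 7 higher and 2 lower to 9 and 5, and with libraries 2 and 3 left out to 12 and 2; both were chosen after the values were seen.

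Gpx8 gave both falls. In the testis it went from 2.42, 1.46, 2.11 and 1.597 CPM to 0.526, 0.983, 0.787 and 1.01 CPM, on 44, 28, 40 and 28 and 10, 19, 15 and 19 reads (2.28-fold lower, log2 fold change -1.19, SE 0.26, adjusted p = 0.0254), where 0.233% of genes were called lower. In the initial segment it went from 29.4, 33.6, 29.4 and 41.9 CPM to 25.1, 26.2, 20.6 and 22.2 CPM (1.43-fold lower, log2 fold change -0.51, SE 0.12, adjusted p = 0.0112), where 3.14% were called lower. The ages did not overlap in either region. In the caput, where Gpx8 is highest, the log2 fold change was 0.04 (95% interval -0.24 to 0.31), and in the corpus it was -0.45 (adjusted p = 0.0779). Cdc20b, which overlaps Gpx8 on the other strand, was, on the scaling over all libraries, 8.64 to 11.1 CPM at 3 months and 9.64 to 10.4 CPM at 21 months (log2 fold change -0.04, SE 0.11, adjusted p = 0.942) in the testis. Fibroblast markers were lower for 3 of 8 in the testis (107.3 to 133 and 89.2 to 105 CPM) and for 2 of 8 in the initial segment (1054 to 1671 and 759.7 to 896 CPM), and germ cell markers were lower for 8 of 16 in the initial segment (59.5 to 169.7 and 19.9 to 46.9 CPM). In the initial segment T cell markers were higher for 6 of 10 (median log2 fold change 1.37; 5.57 to 6.19 and 11.3 to 15.2 CPM in sum) and macrophage markers for 4 of 10. The part of these cells in the falls was not tested. The fall in the testis missed the threshold without 3-month library 1 or 3 (adjusted p = 0.0878 and 0.0636) and without 21-month library 1, 2 or 3 (0.142, 0.0558 and 0.0918), and that in the initial segment without the fourth 21-month library (0.0569). In a fit of all 56 libraries neither passed (0.301 and 0.0634).

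No gene of the 10 passed in the corpus or the cauda by edgeR; at an unadjusted p under 0.05 there were 2 and 2 (against 17.2% and 10.2% of all genes), and DESeq2 called Gpx7 in the corpus (adjusted p = 0.0336) and Gpx5 in the cauda (0.00528). Few genes of any kind were called in these regions, 2.99% and 0.198% of those tested. In the corpus Gpx7 was 2.498, 1.79, 2.11 and 1.63 CPM at 3 months and 0.621, 1.11, 1.25 and 0.925 CPM at 21 months, without overlap (-1.06, SE 0.29, adjusted p = 0.0540). Fibroblast markers there were lower for 6 of 8 (median log2 fold change -1.20) and vas deferens markers for 3 of 5. Red blood cell markers were higher for 2 of the 7 tested and B and plasma cell markers for 2 of 8. None of these lists had a call the other way, and their part was not tested. In the cauda Gpx5 was 32.2, 18.2, 35.6 and 33.4 CPM and 61.04, 59.8, 48.97 and 55.9 CPM, also without overlap (0.92, SE 0.20, adjusted p = 0.0996). Gpx3, the leading peroxidase of both regions, had log2 fold changes of -0.02 in the corpus (95% interval -0.22 to 0.18) and -0.01 in the cauda (95% interval -0.48 to 0.46). Gpx7, Sod3 and Cat passed in none of the 7 regions by edgeR. The log2 fold change of Sod3 ran from -0.61 in the cauda (adjusted p = 0.534) to 0.22 in the testis (adjusted p = 0.397), that of Cat from -0.40 in the cauda (adjusted p = 0.557) to 0.08 in the corpus (adjusted p = 0.712) and that of Gpx7 from -1.06 in the corpus (adjusted p = 0.0540) to 0.13 in the efferent ductules (adjusted p = 0.822).

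**Figure D3:**
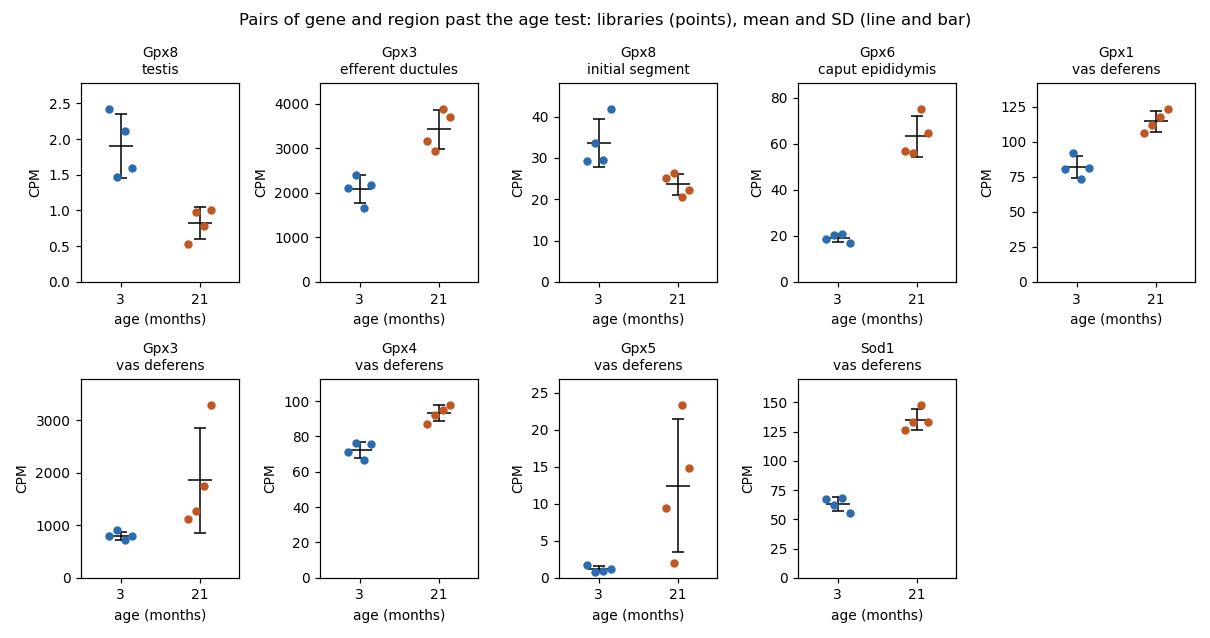
The 9 pairs of gene and region that passed the age test, with the level in each library as a point (CPM, scaled within the region's 8 libraries) against age in months, and the mean with its SD as lines (n = 4). The ages do not overlap in any panel but differ in spread: Gpx6 in the caput and Sod1 in the vas deferens are tight, while Gpx3 and Gpx5 in the vas deferens are wide at 21 months.

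**Figure D4:**
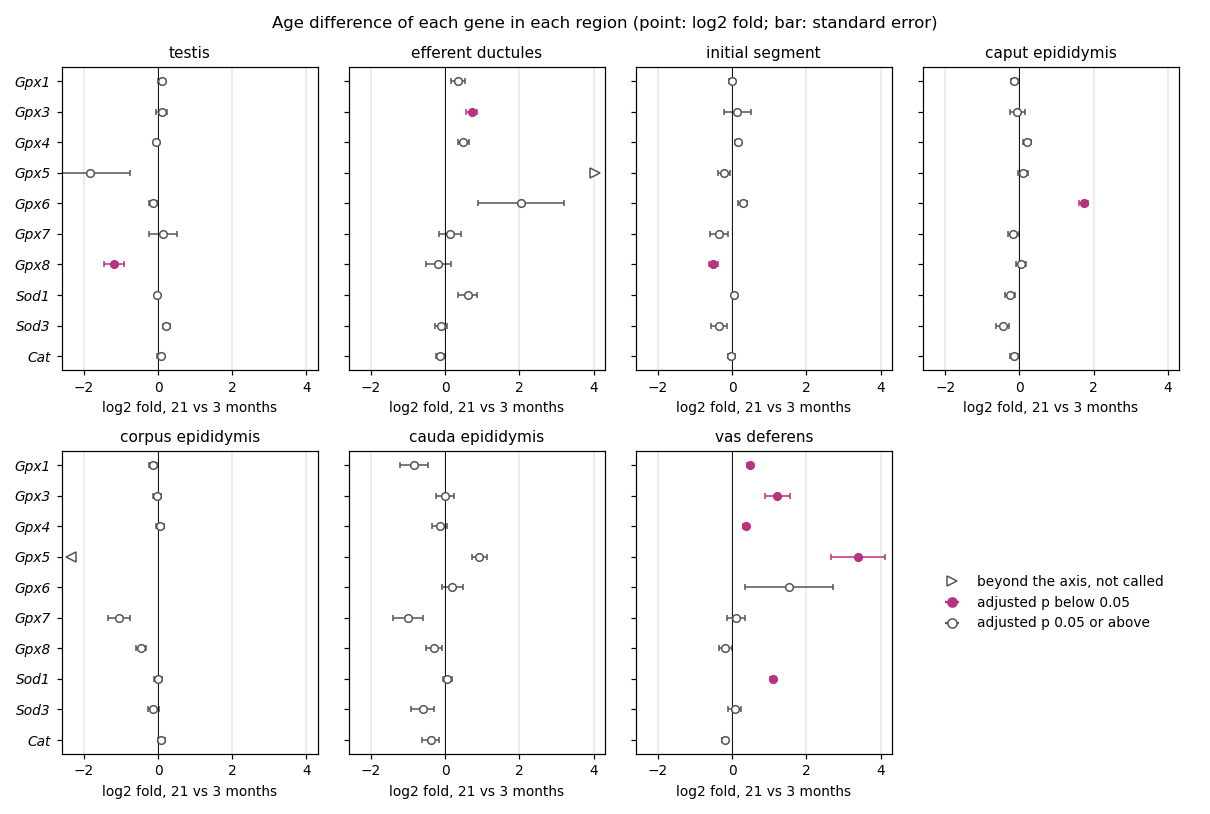
Log2 fold change of each gene between 21 and 3 months in each region, with its standard error as a bar, filled where the adjusted p is under 0.05; triangles mark Gpx5 in the efferent ductules and corpus, whose estimates lie beyond the axis and did not pass. The vas deferens holds 5 of the 9 filled points, all to the right of 0, and the corpus and cauda hold none. Gpx6 in the corpus was not tested.

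Whether the age difference itself varied between regions was tested over all 56 libraries. It did for 5 of the 10 genes, where 19.8% of all genes were called: Sod1 (adjusted p = 2.53e-06), Gpx5 (0.00332), Gpx1 (0.00614), Gpx6 (0.00646) and Gpx3 (0.0290). Against the mean age difference of the other 6 regions, the vas deferens was higher by 1.12 for Sod1 (log2; SE 0.15, adjusted p = 4.77e-07), by 1.16 for Gpx3 (SE 0.28, adjusted p = 0.00549) and by 0.69 for Gpx1 (SE 0.21, adjusted p = 0.0289). Over all genes 7.5% were called in this contrast for the vas deferens, 2.24% for the cauda and 3.73% for the efferent ductules. Sod1 in the caput differed by -0.45 (SE 0.15, adjusted p = 0.0479), where 6.93% were called. The mean of the other 6 regions here includes the rise in the vas deferens. Within the caput the age difference of Sod1 was -0.25 and did not pass (adjusted p = 0.254). Gpx1 in the cauda differed by -0.91 (adjusted p = 0.00997), but by -0.24 (SE 0.15, not called) without 3-month library 3 and 21-month library 2 of the cauda, which stand apart for Gpx1. Gpx5 in the efferent ductules differed by 6.53 (adjusted p = 0.00921), and without 21-month libraries 2 and 3, which hold its reads there, by -3.001 (SE 2.44, adjusted p = 0.653). For Gpx6 in the caput the difference was 1.07 (SE 0.49, adjusted p = 0.218), and the regions that nearly lack Gpx6 enter this mean. Gpx4, Gpx7, Gpx8, Sod3 and Cat were not shown to differ, with adjusted p from 0.0594 to 0.239. With the libraries of 1 replicate number left out of every region, 4, 1, 2 and 2 genes were called, in the order of the numbers, and Sod1 was among them each time (adjusted p at most 0.00583). Gpx1 passed in none of these 4 fits (adjusted p = 0.0504 to 0.0958), Gpx3 in 1 (highest 0.488), and Gpx5 and Gpx6 in 2 each (highest 0.104 and 0.0641). Gpx3 did not pass with library size as the only scale (0.124), nor Gpx6 without the testis (0.0542).

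The rest of the antioxidant system was read from 6 lists of 118 further genes, covering peroxiredoxins and thioredoxins, glutathione synthesis, glutathione S-transferases, selenium supply, the transcription factor NRF2 with its targets, and oxidases that make superoxide or peroxide. Over the 7 regions, with 113 to 117 of the 118 genes tested in each, they gave 48 calls higher and 27 lower at 21 months. Over all genes and regions 3.3% of tests were called higher and 3% lower. With library size as the only scale the lists gave 23 and 49, and over the 11 alternatives 23 to 91 higher and 19 to 49 lower. In the vas deferens 17 of 117 tested genes were higher at 21 months and 20 lower, against 11.1% and 8.47% of all genes, with a median log2 fold change of 0.04 against 0.02. Of the 24 peroxiredoxin, thioredoxin and related genes there, 2 rose and 7 fell, and of the 18 NRF2-related genes 5 rose and 2 fell. The mitochondrial dismutase Sod2 rose in the vas deferens, from 118 ± 5.66 CPM at 3 months to 139 ± 3.95 CPM at 21 months (SD, n = 4; log2 fold change 0.24, SE 0.07, adjusted p = 0.0256). Duox2, an oxidase that makes hydrogen peroxide at the epithelial surface, fell from 1.83 ± 0.360 CPM at 3 months to 0.526 ± 0.251 CPM at 21 months (SD, n = 4; log2 fold change -1.78, SE 0.36, adjusted p = 0.00565), and Ncf4, a subunit of the phagocyte oxidase, rose from 3.18 ± 0.327 CPM at 3 months to 7.81 ± 5.101 CPM at 21 months (SD, n = 4; log2 fold change 1.29, SE 0.37, adjusted p = 0.0384).

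In the caput 10 of 114 genes of these lists were higher and 2 lower, against 3.27% and 5.21% of all genes, with a median log2 fold change of 0.11 against -0.01. Of the 10, 4 were on the list of peroxiredoxins, thioredoxins and related enzymes. Prdx1, a cytosolic peroxiredoxin, was 129.7 ± 20.5 CPM at 3 months and 222 ± 12.3 CPM at 21 months (SD, n = 4; log2 fold change 0.77, SE 0.12, adjusted p = 0.00189), and Msrb3, a methionine sulfoxide reductase, was 69.7 ± 8.26 CPM at 3 months and 50.4 ± 4.29 CPM at 21 months (SD, n = 4; log2 fold change -0.47, SE 0.11, adjusted p = 0.0189). In the efferent ductules 9 of 115 were higher and 4 lower, against 3.85% and 2.93% of all genes, with a median of 0.21 against -0.04; DESeq2 called 26 higher and 7 lower there. Selenom, a selenoprotein of the endoplasmic reticulum, was 24.6 ± 3.52 CPM at 3 months and 56.7 ± 25.3 CPM at 21 months (SD, n = 4; log2 fold change 1.20, SE 0.29, adjusted p = 0.0372), and Selenoi was 37.7 ± 2.76 CPM at 3 months and 27.1 ± 1.42 CPM at 21 months (SD, n = 4; log2 fold change -0.48, SE 0.10, adjusted p = 0.0191). In the initial segment 5 of 113 were higher and none lower, against 3.57% and 3.14%, with Gstp3 at 1.09 ± 0.534 CPM at 3 months and 2.78 ± 0.282 CPM at 21 months (SD, n = 4; log2 fold change 1.35, SE 0.31, adjusted p = 0.0104). In the testis 4 of 114 were higher and none lower, against 0.35% and 0.233%, among them Cybb, the catalytic subunit of the phagocyte oxidase, at 1.23 ± 0.367 CPM at 3 months and 2.41 ± 0.632 CPM at 21 months (SD, n = 4; log2 fold change 0.98, SE 0.24, adjusted p = 0.0476). In the corpus 3 of 115 were higher and 1 lower (8 and 1 by DESeq2), against 1.47% and 1.52%: Nqo1, a quinone reductase, was 65.9 ± 7.58 CPM at 3 months and 93.2 ± 5.41 CPM at 21 months (SD, n = 4; log2 fold change 0.50, SE 0.10, adjusted p = 0.00640) and Dpep1, a dipeptidase that cleaves glutathione products, was 30.2 ± 2.68 CPM at 3 months and 19.3 ± 2.77 CPM at 21 months (SD, n = 4; log2 fold change -0.64, SE 0.12, adjusted p = 0.00449). In the cauda none of 114 passed by edgeR; 12 were under an unadjusted p of 0.05, against 10.2% of all genes, and DESeq2 called 3.

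Over the 14 group means of log2(CPM + 1), the genes most like a member were found among 15491 genes whose highest group mean was at least 10 CPM. For Gpx5 they were Gm17416 (r = 0.98), Defb18 (r = 0.97) and Spag11b (r = 0.96), of which Defb18 and Spag11b are epididymal defensins. For Gpx3 they were Marveld3 (r = 0.99), Slc44a3 (r = 0.98) and Bmpr1b (r = 0.98), for Gpx4 Aqp11 (r = 0.99), Gpx4-ps2 (r = 0.99) and 1700001O22Rik (r = 0.98), and for Cat Rspo1 (r = 0.99), Glis2 (r = 0.99) and Mtmr11 (r = 0.99). For Sod3 they were Tmem88b (r = 0.98), Scly (r = 0.97) and Taok2 (r = 0.97), of which Scly releases selenium from selenocysteine. For Gpx1 they were Psmb10 (r = 0.96), Rps6kc1 (r = 0.96) and Tmem140 (r = 0.96) and for Gpx8 Mpv17l (r = 0.97), Sec11c (r = 0.96) and Mcoln1 (r = 0.96). Gpx6 was followed by Rbm26 (r = 0.95), Gm32364 (r = 0.94) and Rhcg (r = 0.94). Sod1, the most even of the members, had the weakest likeness, Rps10-ps2 (r = 0.90), Cyp4f15 (r = 0.88) and Eid2 (r = 0.88). The points share libraries and regions, and r is a description of these 14 means.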

How the data were processed

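RNA-seq was done on 7 regions of the reproductive tract of 3- and 21-month-old male C57BL/6 mice, with 4 libraries per region and age. The authors prepared stranded total RNA libraries, sequenced them on a NovaSeq, aligned the reads to the mouse genome (mm10) with HISAT2 and, per the labels, trimmed with cutadapt and counted with HTSeq. Versions, the annotation and the strand setting of the counting are not given in the sources used here. The deposited values are raw read counts per gene and library, 11125279 to 20561967 in total, so that low counts limit the precision of Gpx5, Gpx6, Gpx7 and Gpx8 outside their main regions. Groups and replicate numbers came from the sample titles. No pair of libraries of a group matched within sampling noise.

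Genes with 10 or more counts over the libraries compared were tested with the edgeR quasi-likelihood test (edgeR 4.0.16, R 4.3.3; robust, TMM scaling), and p-values were adjusted by Benjamini-Hochberg over all genes tested; a gene was called at an adjusted p under 0.05. Ages were compared within each region, region by age interactions over all 56 libraries, and regions within each age; intervals are 95%. The functions of the edgeR fits were tested on simulated counts, for age in the testis and vas deferens, the caput against the other regions, and age by region. Levels are CPM, TMM-scaled over all libraries or, for ages, within a region. The 10 members and all lists were chosen with earlier results of these data known. Apart from the members, Sod2 and Gpx2, the text names, for each region and direction, the called list gene with the largest fold change among those with at least 1 CPM and no overlap between ages, and for each member the 3 genes with the closest pattern (those of Gpx7 are not reported here); other genes named are markers, overlapping genes or pseudogenes. Alternatives were DESeq2 1.42.0, other scalings and filters, a replicate block, the study's 1.5-fold limit, 1 fit of all libraries, other definitions and exon lengths, libraries left out, and the removal of Gm42418. Same-numbered libraries passed a check for shared deviation (every correlation above 0.1) for the corpus with the cauda at 3 months (lowest 0.121). There are 21 region pairs per age, and no other pair passed. Positions are from GENCODE M21 (GRCm38).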

Additional observations from a re-analysis of the deposited data

Results flagged for a closer look

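In 15 of 127 sets of 4 libraries with a mean of at least 1 CPM, 1 library stood far from the other 3 by the ratio of its gap to the group's range (Dixon's critical value 0.829); chance alone flags about 1 set in 20. In the cauda the third 3-month library was flagged 4 times: for Gpx1 at 218 CPM (others 87.5 to 93.8), Cat at 52.1 CPM (28.8 to 31.2), Sod3 at 11.6 CPM (6.34 to 7.12) and, on the low side, Gpx3 at 4469 CPM (9049 to 9687). The second 21-month cauda library was low for Gpx1 at 36.6 CPM (77.2 to 82.5) and Gpx4 at 93.2 CPM (178 to 195), and the second 3-month cauda library was low for Gpx5 at 19.9 CPM (35.2 to 37.2). In the corpus the first 3-month library was high for Gpx5 at 34.9 CPM (0.216 to 0.285) and Gpx4 at 164 CPM (133 to 138). In the efferent ductules at 3 months the first library was high for Gpx5 at 8.01 CPM (0 to 0.164) and the second for Gpx7 at 10.4 CPM (7.88 to 8.16). In the caput Gpx5 was high in the third 3-month library at 21274 CPM (15482 to 16207), and Gpx4 low in the second 21-month library at 83.1 CPM (94.1 to 95.2). Sod3 was low in the third 3-month testis library at 22.1 CPM (30.4 to 31.7) and high in the first 21-month library of the initial segment at 22.9 CPM (11.5 to 13.05).

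The difference between the ages varied between regions by the joint test of the interaction terms (edgeR) for Sod1 (adjusted p = 2.53e-06), Gpx5 (0.00332), Gpx1 (0.00614), Gpx6 (0.00646) and Gpx3 (0.0290).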

How the results depend on the processing

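None of the 9 age calls changed direction in any alternative or when 1 library was left out. Gpx6 in the caput and Sod1 in the vas deferens passed in all 9 alternatives and all 8 fits with 1 library left out (adjusted p at most 0.000674), and Gpx4 in the vas deferens in all but the study's 1.5-fold limit, which Gpx1 in the vas deferens and Gpx8 in the initial segment also missed. With 1 library left out, the age calls of the 10 genes ranged from 5 to 8 higher and 1 to 3 lower, those of the other antioxidant lists from 40 to 59 higher and 18 to 31 lower. With the libraries of 1 replicate number left out of every region, the genes whose age difference varied between regions ranged from 1 to 4, the region-specific calls from 5 to 6, and the separated steps from 22 to 28 at 3 months and 22 to 29 at 21 months. The fall of Gpx8 decided the low end for genes called lower, in the libraries named above for the testis and the initial segment. With library size as the only scale, which shifts the median over all genes in 3 regions (log2 fold change -0.38 for efferent ductules, 0.19 for caput, -0.17 for corpus), 4 gene and region pairs were lower, and the lists gave 23 higher and 49 lower. Without a filter 5 pairs were lower. DESeq2 called 77 list genes higher. With 21-month efferent ductule libraries 1 and 4 left out, 5 pairs and 44 list genes were lower; without libraries 2 and 3, 12 pairs and 91 list genes were higher and 8 genes varied in age difference between regions. Removal of Gm42418 left all of these counts within 1.5 times.

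Region-specific calls fell to 2 when a gene had to exceed each of the other 6 regions in turn, and rose to 10 with the fold of the fit in place of the ratio of means, which weighs low regions more. DESeq2 gave 3, because it returned no p-value for Gpx5 in the initial segment and caput and because Gpx3 in the cauda stood at 3.84 times on its size factors. With the length of the longest transcript, the shares were 96.1% for Gpx4 in the testis, 81.4%, 96.1% and 75.6% for Gpx3 in the efferent ductules, corpus and vas deferens and 97.4% for Gpx5 in the initial segment. With no length they were 95.2% for Gpx4 in the testis and 87.0%, 97.5% and 82.6% for Gpx3 in the efferent ductules, corpus and vas deferens. The leading gene was the same each time.

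Only the corpus with the cauda at 3 months passed the check of same-numbered libraries (mean correlation 0.163). The caput with the corpus at 3 months had a mean of 0.233 (lowest 0.0384) and did not pass. Nor did the corpus with the cauda at 21 months, with 0.158 (lowest 0.0588). Over all region pairs the mean was 0.0359 at 3 months and 0.00469 at 21 months. Libraries of the same animal can fail this check, so it cannot show that the numbers do not mark animals. At 3 months 27 steps between regions were separated with the number as a block, as many as without it. With the replicate number as a block, 4 pairs were lower at 21 months in place of 2, and Gpx3 was not called in the efferent ductules (adjusted p = 0.0627) or the vas deferens (adjusted p = 0.0645).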
